A study of Mus musculus with 8 samples.

Results

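The 7 genes described here, Gabra2, Gabra3, Gabra4, Gabra5, Gabrb1, Gabrb2 and Gabrg1, encode subunits of the GABA-A receptor. They were taken by symbol from the deposited count table, in which all 7 were found among 56691 gene rows. The table holds 19 GABA-A subunit genes in all, and some of the others are given where they place these 7. The counts are of messenger RNA bound to tagged ribosomes of the mouse VTA (ventral tegmental area), a midbrain region that holds the mesolimbic dopamine neurons. Of 8 libraries, 4 came from male mice of the genotype Ogt flox+/Y (Ogt knockdown, replicates 2, 3, 4 and 5) and 4 from males of the genotype Ogt flox-/Y (control, replicates 3, 4, 5 and 6). Both groups received the same viruses in the VTA: AAV-TH-Cre, which drives Cre recombinase from the tyrosine hydroxylase promoter, and AAV-Flex-NBL10, a Cre-dependent HA-tagged protein by which ribosomes were pulled down. The Ogt product, O-GlcNAc transferase, adds a sugar (O-GlcNAc) to proteins inside the cell. The labels give no age and do not say whether animals were pooled or whether replicates were separate animals. A p-value here therefore reflects the spread among these 8 libraries, part or all of which may be technical.

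GABA-A receptors are chloride channels opened by the inhibitory transmitter GABA. Each is a ring of subunits, usually alpha and beta subunits with a gamma or delta subunit, and GABA binds between beta and alpha. The alpha subunit sets much of the pharmacology and the place of the receptor, and dopamine neurons of the midbrain are known for alpha-3-containing receptors. Glial cells also carry such receptors, and beta-1 and gamma-1 messages are known from astrocytes.

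The 4 alpha members differ at a codon that decides whether classical benzodiazepines bind. The windows below show that codon in capitals, 5′ to 3′ on the coding strand, from the GENCODE M21 transcripts (GRCm38), so that the sensitive and the insensitive type can be told apart in the values that follow.
Gabra2, chr5:71014490-71014513, minus strand: ttctttCACaatgggaaaaagtca
Gabra3, chrX:72501153-72501176, minus strand: ttcttcCACaatggtaaaaaatca
Gabra4, chr5:71641137-71641160, minus strand: ttcttcAGGaatggaaagaaatct
Gabra5, chr7:57488876-57488899, minus strand: ttcttcCACaacggcaagaagtcc
The codon was CAC, for histidine, in Gabra2, Gabra3 and Gabra5, and AGG, for arginine, in Gabra4. Over the whole coding sequence the alpha members were 66.9% to 73.4% identical to each other in nucleotides, and Gabrb1 and Gabrb2 were 72.7% identical. Members of different classes were 58.9% to 63.9% identical.

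Libraries held 49802305 to 147747191 counted reads. Levels are given as CPM, the usual scaling of a gene's reads to library size, with library sizes adjusted by the trimmed mean of M values (TMM). Ogt itself was lower in each knockdown library (36.0 to 74.4 CPM) than in each control library (108.3 to 159 CPM), with an edgeR quasi-likelihood adjusted p of 0.00243. The marker Th, the enzyme that makes the dopamine precursor, was present in all 8 libraries, and fell from 707 ± 364 to 214 ± 47.3 CPM (SD, n = 4, edgeR adjusted p = 0.00351). Markers of glia and of other neurons were above 0 in all libraries too, apart from Tbr1, at 0 in control replicate 3. Of 12 oligodendrocyte markers 7 rose, and of 8 glutamate neuron markers 3 fell. Control replicate 3 stood apart from the other controls: it had 150.8 CPM of the endothelial marker Cldn5, against 1.93 to 2.88 CPM in the others, and the lowest summed level of 12 astrocyte markers (1593 CPM). For this reason the fold change of each of the 7 members is given with and without it. Control replicate 3 also had the highest summed level of 12 dopamine neuron markers, at 3900 CPM, against 2162 to 2815 CPM in the other controls. Ogt and Th kept their calls without it. Knockdown replicate 3 differed from the other knockdown libraries (chi-square per degree of freedom over genes 218 to 285) more than these did among themselves (48.8 to 138), so the fit without both libraries numbered 3 is given as well; it was chosen after seeing the data.

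Of the 7 members, 1 rose (Gabrb1) and 1 fell (Gabra3) in knockdown at an adjusted p under 0.05 (edgeR quasi-likelihood test, Benjamini-Hochberg over 19912 genes). Over all genes tested 28.5% passed in either direction, 13.4% higher and 15.1% lower, so the share of members that passed was near the background. The median log2 fold change of the members was 0.09, against 0.00 for all genes tested. All 7 passed the filter on low counts. Without control replicate 3, Gabra5 was added to the members that fell, against 34.9% of all genes called (18.1% higher, 16.8% lower). Without both libraries numbered 3, Gabrb2 was added too, against 46.8% of all genes called (23.5% higher, 23.3% lower). The share of all genes called was 14.6% with no filter on low counts, 6.32% with the replicate number as a block and 51.3% with limma-voom and sample weights.

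**Figure D1:**
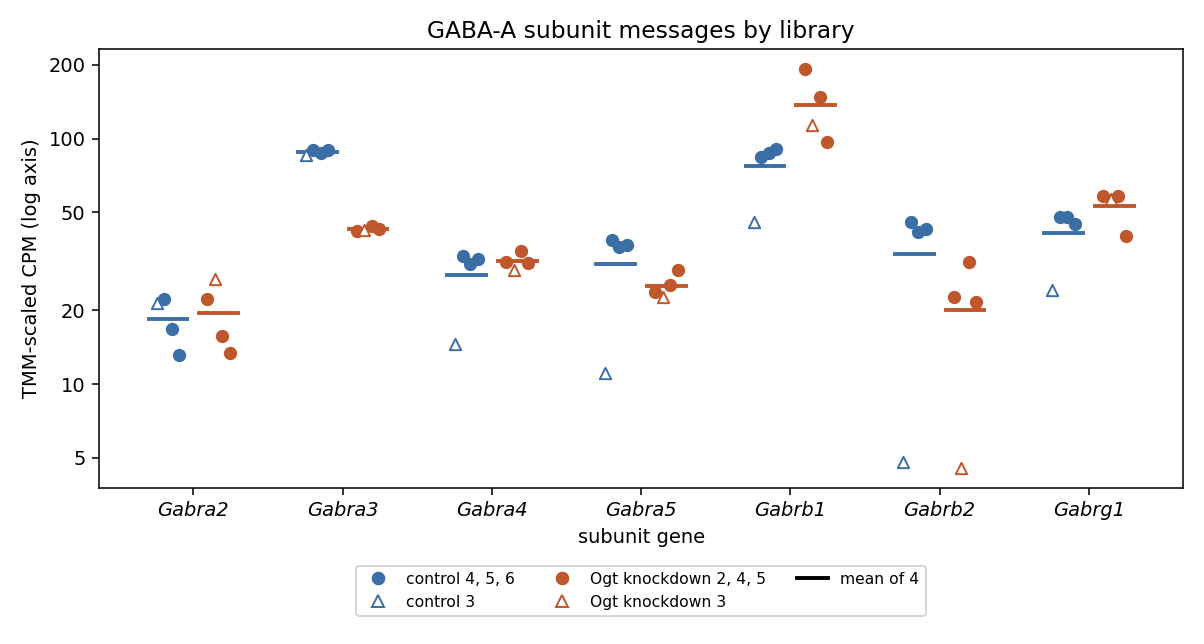
TMM-scaled CPM of the 7 members in each library on a log axis, with control libraries in blue, Ogt knockdown libraries in orange, the libraries numbered 3 as open triangles and bars at the mean of 4. Gabra3 lies between 85.4 and 89.9 CPM in controls and between 42.1 and 44.1 CPM in knockdown, while control replicate 3 is far below the other controls for Gabra4, Gabra5, Gabrb1, Gabrb2 and Gabrg1.

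Gabra3, which encodes the alpha-3 subunit, showed the most uniform change of the members. Its level was 85.4, 89.9, 87.3 and 89.4 CPM in control replicates 3, 4, 5 and 6. In knockdown replicates 2, 3, 4 and 5 it was 42.1, 42.2, 44.1 and 42.8 CPM. The groups did not overlap, and within each group the libraries lay within a few CPM of each other, including those numbered 3. The share of all genes tested whose groups did not overlap was 35.1%. Mean levels were 88.0 ± 2.08 CPM in controls and 42.8 ± 0.895 CPM in knockdown (SD, n = 4). This was a log2 fold change of -1.04 (SE 0.097, 95% interval -1.25 to -0.82, edgeR adjusted p = 0.000184), or 2.06-fold lower. Without control replicate 3 it was -1.06 (edgeR adjusted p = 9.92e-05), and the call held under all 16 alternatives tried. The libraries hold ribosome-bound RNA of many cells, so fewer cells that carry a message and less ribosome-bound message per cell cannot be told apart. In the same libraries the summed level of 10 general neuron markers, such as Snap25 and Tubb3, was 7510 to 8212 CPM in controls and 3064 to 3736 CPM in knockdown; 9 of the 10 fell, with a median log2 fold change of -0.94. The summed level of 12 dopamine neuron markers was 2162 to 3900 CPM in controls and 1802 to 2430 CPM in knockdown, and 10 of these 12 fell. The median log2 fold change of the 12 was -1.74, and -1.33 without control replicate 3. Aldh1a1, which is also made by other cells, rose from 723 ± 201 to 1664 ± 259 CPM (SD, n = 4) and is part of that sum. No marker of either list was at 0 in any library, and their part in the fall of Gabra3 was not tested.

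The genes closest to Gabra3 in pattern were Bri3bp and Rassf5. The measure was the root mean square difference of log2 CPM, each gene centred on its own mean over the 8 libraries, among 13272 candidate genes. It was 0.027 for Bri3bp and 0.042 for Rassf5. Bri3bp fell from 145.2 ± 5.38 to 71.3 ± 1.68 CPM (SD, n = 4). A fall like that of Gabra3 follows from the choice, since genes were matched over the libraries of both groups.

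The Gabra3 gene (ENSMUSG00000031343.14) lies on the X chromosome, from 71476287 to 71700454 on the minus strand (GRCm39), and its exons share no base with another gene of the table. The 250 bases before its upstream RefSeq start are shown because this member changed most evenly. They are chrX:72656920-72657169, minus strand, in GRCm38.p6, with capitals where a motif searched was found:
Gabra3: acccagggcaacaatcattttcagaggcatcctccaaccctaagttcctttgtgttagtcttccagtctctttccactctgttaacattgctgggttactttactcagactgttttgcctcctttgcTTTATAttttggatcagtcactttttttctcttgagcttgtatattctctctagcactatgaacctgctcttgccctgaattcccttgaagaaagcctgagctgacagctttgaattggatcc
The capitals mark TATAAA, here on the reverse strand. This motif occurred in 12.3% of the 32544 RefSeq windows of the same length. The other motifs searched, all on both strands, were the STAT type TTCNNNGAA, the CRE TGACGTCA and the EGR motif GCGTGGGCG. The E-box searched was CACGTG. The GC box searched, GGGCGG, was found in 33.0% of windows.

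Gabra5 encodes alpha-5, which is known from receptors outside synapses. Its level was 11.1 CPM in control replicate 3 and 38.7, 36.0 and 37.0 CPM in control replicates 4, 5 and 6. The knockdown libraries, replicates 2 to 5 in order, gave 23.6, 22.7, 25.2 and 29.0 CPM. All of these exceeded control replicate 3 and all were under the other 3 controls. With all 8 libraries the log2 fold change was -0.29 (SE 0.33, 95% interval -1.01 to 0.43, edgeR adjusted p = 0.546). Without control replicate 3 it was -0.57 (SE 0.12, edgeR adjusted p = 0.00578), a fall from 37.3 ± 1.36 CPM (SD, n = 3) to 25.1 ± 2.78 CPM (SD, n = 4), and the groups then did not overlap, as for 47% of all genes. In the edgeR fits, whether Gabra5 is called turns on that library. With all 8 libraries, limma-voom with sample weights also called it lower (log2 fold change -0.49, limma-voom adjusted p = 0.0122). Of the exon bases of Gabra5, 4.98% are shared with Gm9962 on the other strand, where reads counted without strand are left unassigned.

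Gabra4 encodes alpha-4, the subunit with the AGG codon. It had 14.6, 33.1, 30.7 and 32.3 CPM in control replicates 3, 4, 5 and 6. The knockdown values were 31.5, 29.1, 34.9 and 31.2 CPM for replicates 2 to 5 in order. Apart from control replicate 3, libraries of both groups lay in the same narrow range. The log2 fold change was 0.19 (SE 0.23, edgeR adjusted p = 0.576) and, without control replicate 3, -0.02 (SE 0.11, edgeR adjusted p = 0.908). The 95% interval with all libraries ran from -0.33 to 0.71.

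Gabra2 encodes alpha-2, an alpha subunit of inhibitory synapses in the forebrain. Its level was 21.3, 22.3, 16.8 and 13.2 CPM in control replicates 3, 4, 5 and 6, and 22.2, 26.8, 15.7 and 13.4 CPM in knockdown replicates 2, 3, 4 and 5. The groups overlapped over nearly their whole range, and control replicate 3 was not low. The log2 fold change was 0.09 (SE 0.25, 95% interval -0.46 to 0.63, edgeR adjusted p = 0.827), and 0.16 (edgeR adjusted p = 0.658) without control replicate 3.

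The ratios of the alpha members within each library, which do not depend on scaling between libraries, were compared for all pairs. They are made of the same reads as the fold changes above, so a ratio with Gabra3 is not independent evidence of its fall. The log2 ratio of Gabra3 to Gabra4 reads was 2.55, 1.44, 1.51 and 1.47 in control replicates 3, 4, 5 and 6. It was 0.42, 0.54, 0.34 and 0.46 in knockdown replicates 2, 3, 4 and 5, a mean difference of -1.30 (-1.03 without control replicate 3). The ratios of Gabra3 to Gabra5 and of Gabra2 to Gabra3 also separated the groups, with differences of -0.90 and 1.10 (-0.48 and 1.20 without control replicate 3). Each of these 3 had an exact two-sided permutation p of 0.0286, the smallest that 70 assignments of 8 libraries can give, and an adjusted p of 0.0667 over the 7 ratios compared, so none passed the threshold after adjustment. No larger difference in these 3 ratios could have lowered either value. The ratio of Gabra4 to Gabra5 differed by 0.40 (exact permutation p = 0.0857) and overlapped between the groups through control replicate 3 (0.40). The other controls were at -0.22, -0.23 and -0.19 and the knockdown libraries at 0.10 to 0.47, a difference of 0.55 without control replicate 3. Gabra2 to Gabra4 (-0.20, exact permutation p = 0.743) and Gabra2 to Gabra5 (0.20, exact permutation p = 0.771) also overlapped, and both differences depended on single libraries.

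**Figure D2:**
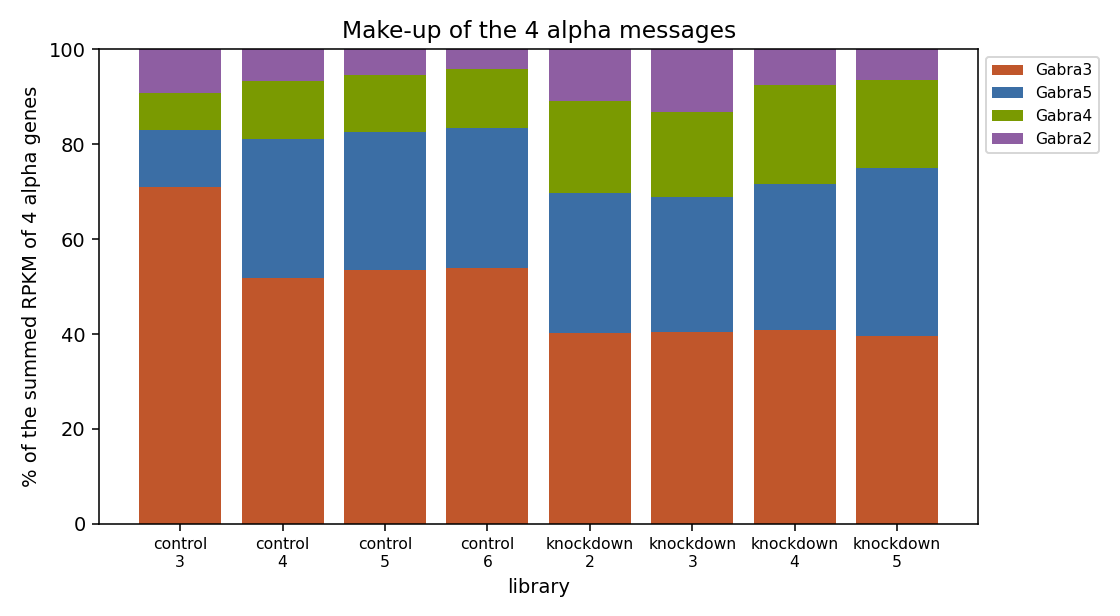
Share of each of the 4 alpha members in their summed RPKM (CPM per kilobase of exon), in percent, for each library. Gabra3 takes 51.7% to 70.9% in the control libraries and 39.6% to 40.8% in the knockdown libraries, and Gabra4 takes 7.82% to 12.6% and 17.9% to 20.9%.

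Per length, Gabra3 was the most abundant of the 4 alpha members in every library. Control replicate 3 had the largest Gabra3 share of their summed RPKM (70.9%) and the smallest Gabra5 share (12.2%, against 29.1% to 29.4% in the other controls). Gabra5 took 28.6% to 35.4% in knockdown libraries. Gabra2 took 4.08% to 9.1% in controls and 6.36% to 13.1% in knockdown, with overlap between the groups. Among the 7 members, control levels per length were 22.4 ± 0.531 RPKM for Gabra3 and 10.3 ± 4.42 for Gabra5 (SD, n = 4). Gabrb1 (5.57 ± 1.53 RPKM), Gabrb2 (5.3 ± 3.04), Gabrg1 (5.24 ± 1.45) and Gabra4 (4.55 ± 1.45) followed, with overlapping ranges, and Gabra2 was lowest (2.41 ± 0.552), though its range overlapped that of Gabra4. In knockdown Gabra3 (10.9 ± 0.228 RPKM) and Gabrb1 (9.92 ± 3.02) came first with overlapping ranges, followed by Gabra5 (8.45 ± 0.935). The range of Gabra5 overlapped that of Gabrb1, which was above it in 3 of 4 knockdown libraries. Gabrg1 (6.76 ± 1.11 RPKM) lay below Gabra5 in every knockdown library, and Gabra4 (5.21 ± 0.4), Gabrb2 (3.15 ± 1.76) and Gabra2 (2.55 ± 0.801) followed with overlapping ranges. The RPKM of Gabrb1 rests on an exon length of 13838 bases, the longest of the 7.

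Gabrb1 encodes beta-1 and was the member that rose. In control libraries it stood at 45.7 CPM in replicate 3 and at 84.0, 87.4 and 91.0 CPM in replicates 4, 5 and 6. In knockdown it stood at 191, 113, 147.8 and 96.6 CPM in replicates 2 to 5 in order. Each knockdown library lay above each control library, but knockdown replicate 5 was only just above control replicate 6. The mean rose from 77.0 ± 21.1 to 137 ± 41.8 CPM (SD, n = 4), a log2 fold change of 0.83 (SE 0.26, 95% interval 0.26 to 1.41, edgeR adjusted p = 0.0361). Without control replicate 3 it was 0.65 (SE 0.21, edgeR adjusted p = 0.0361). The call was lost under 7 of 16 alternatives, among them those without control replicate 4, 5 or 6 (adjusted p = 0.0756, 0.057 and 0.0538), without knockdown replicate 2 or 4 (0.119 and 0.0908) and with no filter on low counts (0.0667). The summed level of 12 astrocyte markers was 1593 to 6090 CPM in controls and 10295 to 14584 CPM in knockdown, with none of the 12 at 0 in any library. Of these, Gfap, Slc1a2 and Sox9 rose with all libraries, and 8 of 12 rose without control replicate 3. Gabrb1 and the astrocyte markers were both lowest in control replicate 3, as were Gabra4, Gabra5 and Gabrg1. Among knockdown libraries the astrocyte sum was lowest in replicate 3 and Gabrb1 in replicate 5. The part of astrocyte RNA in the rise of Gabrb1 was not tested. The genes closest to Gabrb1 in pattern were Zeb2 and Med13 (root mean square difference 0.112 and 0.149).

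Gabrb2 encodes beta-2, a widespread beta subunit of the brain. Its level was 4.82, 45.5, 41.6 and 42.8 CPM in control replicates 3, 4, 5 and 6, and 22.6, 4.56, 31.4 and 21.6 CPM in knockdown replicates 2, 3, 4 and 5. Both libraries numbered 3 lay far below all others, and the remaining 3 knockdown libraries lay below the remaining 3 controls. With all 8 libraries the log2 fold change was -0.75 (SE 0.68, 95% interval -2.28 to 0.79, edgeR adjusted p = 0.45). Without control replicate 3 it was -1.11 (SE 0.46, edgeR adjusted p = 0.085), and without both libraries numbered 3 it was -0.78 (SE 0.13, edgeR adjusted p = 0.000474). That last fit was chosen after seeing the data, and 46.8% of all genes were called in it. How many genes separate without both libraries was not counted. Without control replicate 3 alone, the groups did not overlap for 47% of all genes. The beta ratio, Gabrb1 to Gabrb2, differed by 1.46 in log2 units between knockdown and control and overlapped between the groups (exact permutation p = 0.114, adjusted 0.16 over the 7 ratios). The overlap came from control replicate 3 (3.24), since the other controls were at 0.88 to 1.09 and the knockdown libraries at 2.16 to 4.62. The difference was 2.01 without control replicate 3.

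Gabrg1 encodes gamma-1, a gamma subunit with weaker benzodiazepine response. The control libraries, replicates 3 to 6 in order, gave 24.2, 48.0, 48.0 and 44.7 CPM. The knockdown libraries, replicates 2 to 5 in order, gave 58.1, 56.6, 58.1 and 40.1 CPM. Of the 4 knockdown libraries, 3 lay above all controls and replicate 5 lay among them. The log2 fold change was 0.37 (SE 0.22, 95% interval -0.12 to 0.86, edgeR adjusted p = 0.243), and 0.18 (SE 0.14, edgeR adjusted p = 0.367) without control replicate 3. Of the 11 member windows before RefSeq starts, that of Gabrg1 was the 1 with a STAT-type match, a motif found in 7.04% of all windows. It is shown because the series title names STAT3. It is chr5:70842618-70842867, minus strand, in GRCm38.p6, with the match in capitals:
Gabrg1: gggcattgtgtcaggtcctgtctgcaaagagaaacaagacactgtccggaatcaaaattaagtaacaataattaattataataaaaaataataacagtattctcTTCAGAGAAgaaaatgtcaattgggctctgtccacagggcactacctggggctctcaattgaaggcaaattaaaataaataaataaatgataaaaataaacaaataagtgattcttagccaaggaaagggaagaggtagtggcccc

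**Figure D3:**
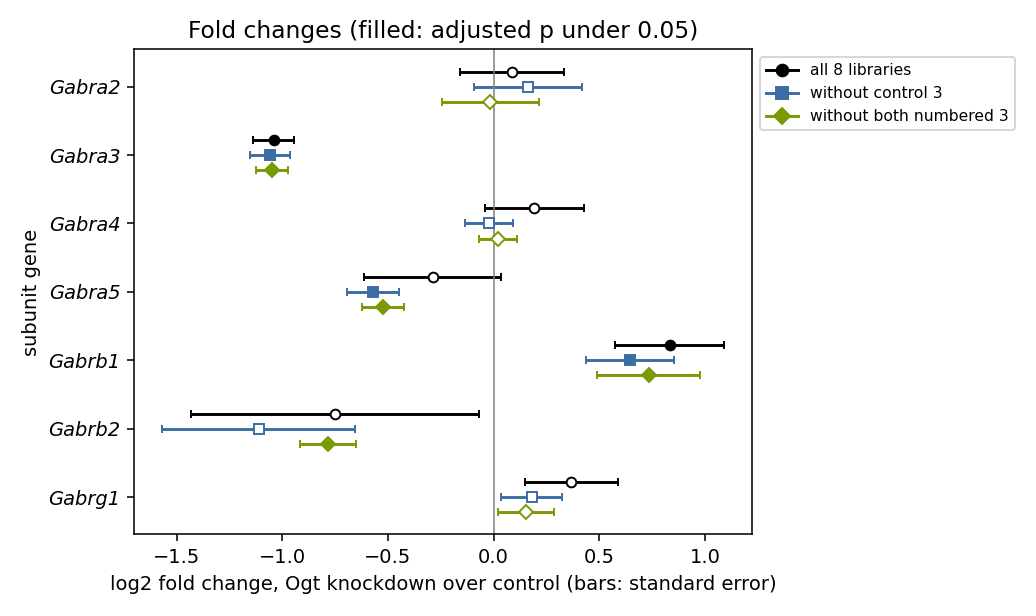
Log2 fold change of each member, Ogt knockdown over control, with its standard error, for all 8 libraries (black), without control replicate 3 (blue) and without both libraries numbered 3 (green), filled where the adjusted p is under 0.05. Gabra3 lies between -1.06 and -1.04 in all 3 fits, and the error bar of Gabrb2 shrinks from 0.68 to 0.13 when both libraries are left out.

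Several subunit genes lie in clusters, which allows members to be read beside their neighbours. On chromosome 5 (GRCm39) the 4 members Gabrg1 (ENSMUSG00000001260.11, 70908390 to 70999960), Gabra2 (ENSMUSG00000000560.10, 71114940 to 71253192) and Gabra4 (ENSMUSG00000029211.12, 71727092 to 71815651) on the minus strand and Gabrb1 (ENSMUSG00000029212.12, 71815456 to 72306380) on the plus strand follow each other. Of these Gabrb1 rose and the log2 fold changes of the other 3 were between 0.09 and 0.37. Gabra4 and Gabrb1 lie head to head and share 46 exon bases at their starts, where reads counted without strand are left unassigned (0.76% of the Gabra4 length and 0.33% of the Gabrb1 length). On chromosome X, Gabrq, which encodes the theta subunit, fell beside Gabra3, from 27.1 ± 1.39 to 12.3 ± 1.51 CPM (SD, n = 4). Its log2 fold change was -1.14 (edgeR adjusted p = 0.000527). Gabre, the epsilon subunit of the same cluster, had a log2 fold change of 0.13 (SE 0.23, edgeR adjusted p = 0.703).

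Gabrb2 (ENSMUSG00000007653.13) lies on the plus strand of chromosome 11, from 42310584 to 42519855, and Gabra5 (ENSMUSG00000055078.8) on the minus strand of chromosome 7, from 57057420 to 57159807. Gabrg3, another subunit gene of chromosome 7, had a log2 fold change of -0.33 (edgeR adjusted p = 0.201).

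**Figure D4:**
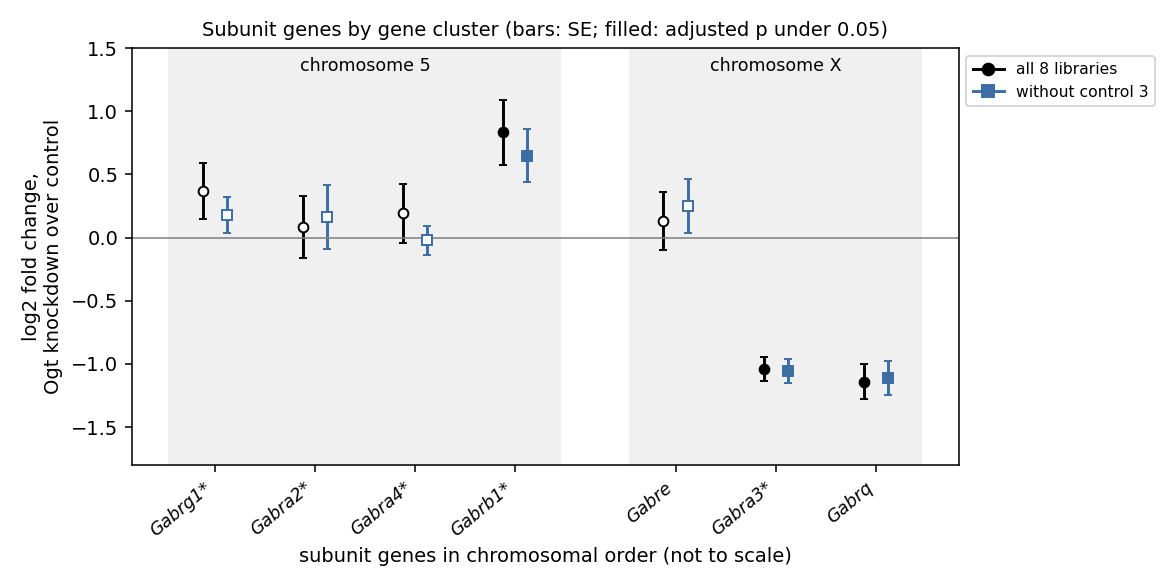
Log2 fold change and standard error of 7 subunit genes in chromosomal order on chromosomes 5 and X, members marked with an asterisk, for all 8 libraries (black) and without control replicate 3 (blue), filled where the adjusted p is under 0.05. The 4 genes on chromosome 5 lie at or above -0.02 in both fits, and Gabra3 and Gabrq lie below -1 on chromosome X.

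Gabrd, whose delta subunit replaces gamma in receptors outside synapses, was low (1.48 ± 0.264 CPM in controls and 1.3 ± 0.424 in knockdown, SD, n = 4). The rho subunit genes Gabrr1 and Gabrr2 had less than 1.5 CPM in every library and did not pass (edgeR adjusted p = 0.319 and 0.194). Gabra6, Gabrp and Gabrr3 were too low to be tested, with at most 0.41, 0.0141 and 0.16 CPM in a library.

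Other genes of GABA signalling were counted in lists, to be read against all genes tested, of which 15.1% fell and 13.4% rose. The genes named below as risen or fallen kept their calls without control replicate 3, where 16.8% of all genes fell and 18.1% rose.

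Of 23 genes of the inhibitory postsynapse and of receptor traffic, 7 fell, 1 rose and 15 did not pass, with a median log2 fold change of -0.32. Nlgn2, the neuroligin of inhibitory synapses, fell 2.11-fold and Hap1, a partner of receptor transport, 2.02-fold (edgeR adjusted p = 0.000454 and 0.00138). Slitrk3, an adhesion protein of inhibitory synapses, fell 1.66-fold, and Dag1, which encodes dystroglycan and is also made by glia and vessels, rose 2.72-fold. Without both libraries numbered 3, 12 of the 23 fell and 4 rose, against 23.3% and 23.5% of all genes. Gphn, the scaffold gephyrin, did not pass with all libraries (log2 fold change -0.32, edgeR adjusted p = 0.207) and was among the 12 that then fell (edgeR adjusted p = 0.0128).

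Among 11 genes of GABA synthesis, transport and breakdown 4 fell and 7 did not pass. These were the vesicular GABA transporter Slc32a1 (2.20-fold), the synthesis enzymes Gad1 (2.13-fold) and Gad2 (2.00-fold), and Aldh5a1 (1.83-fold), an enzyme of GABA breakdown. Without control replicate 3, Aldh9a1 fell as well and Slc6a12, a transporter of betaine and GABA, rose. The 12 GABA neuron markers, of which Gad1, Gad2 and Slc32a1 are also in this list, summed to 1202 to 1693 CPM in controls and 706 to 892 CPM in knockdown; 8 fell and Nkx2-2 rose.

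Of 9 chloride transporters and their kinases 2 fell, 1 rose and 6 did not pass. Slc12a5, the transporter that lowers chloride in neurons, fell 2.69-fold and the kinase gene Stk39 1.55-fold, while Slc12a2, which brings chloride in, rose 1.74-fold (edgeR adjusted p = 0.00188, 0.00501 and 0.0356). The libraries hold RNA of many cells, and whether these changes arose in the same cells was not tested. The call of Slc12a2 was lost under 7 of 16 alternatives, and without control replicate 3 the genes of this list that fell numbered 4 of 9. Among 7 genes of glycine receptors and transport, Glrb (1.73-fold), Glra2 (1.77-fold) and Glra3 (1.87-fold) fell and 4 did not pass. The Glra3 call was lost under 11 of 16 alternatives, and without control replicate 3 Slc6a5, the neuronal glycine transporter, fell too.

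Of 6 GABA-B receptor and KCTD genes, Kctd12b rose 1.58-fold, a call lost under 8 of 16 alternatives, and 5 did not pass. Gabbr1 and Gabbr2, the receptor subunits, had log2 fold changes of 0.12 and -0.31 (edgeR adjusted p = 0.566 and 0.243), and Kctd8 fell without control replicate 3. Of 6 tested genes for the benzodiazepine-site peptide and neurosteroids, Dbi, whose product binds that site, rose 2.97-fold and Tspo, a mitochondrial protein of glia, 3.46-fold, and 4 did not pass. The Dbi call was lost with no filter on low counts (edgeR adjusted p = 0.052). The 12 microglia markers, 9 of which rose, summed to 30.5 to 53.9 CPM in controls and 62.1 to 178 CPM in knockdown, and their part in these rises was not tested.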

How the data were processed

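Ribosome-bound RNA of 8 VTA libraries was sequenced. The authors deposited raw whole-number counts per gene, made with featureCounts 2.0.3 over exons of GENCODE vM30 without options for strand or multiple alignments, per the file headers. The exon lengths used for RPKM are from that table too. FastQC, Trimmomatic, STAR and mm10 stand in the submitters' processing notes, whereas vM30 describes GRCm39. Of protein-coding genes whose start differs by over 100 kb between the table and GENCODE M21 (GRCm38), 45.9% had over 10 CPM, against 47.8% of those within 1 kb. All 7 member starts differ by over 100 kb. Coordinates of genes are the table's (GRCm39). Symbols were matched by gene ID for 52073 of 56691 rows. Motif windows and sequences are GRCm38, from RefSeq and GENCODE M21.

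Groups follow the sample titles. Genes were filtered with filterByExpr (19912 left), scaled by TMM and tested with edgeR 4.0.16 (robust glmQLFit, two-sided glmQLFTest) in R 4.3.3, with Benjamini-Hochberg adjustment and a threshold of 0.05. The test was tried on simulated counts. Ratios used a prior count of 2 and exact permutation. Alternatives were upper quartile and RLE scaling, testing without a filter or with CPM of at least 1 in 4 libraries, DESeq2 1.42.0, limma-voom (limma 3.58.1) with sample weights, the replicate number as a block, and leaving out each library. Leaving out both libraries numbered 3 was added after seeing the data. A count of 3 reads, the floor of detection, is 0.0203 to 0.0602 CPM, for counting error only. Members, lists and tests were chosen with earlier results of these data known. Named genes are the members, other subunits (results for some of these are not reported here), up to 4 genes of smallest p per list, the 2 closest in pattern per member, exceptions to counts, Ogt and Th; Gphn and the cell markers named were chosen after their values were seen.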

Additional observations from a re-analysis of the deposited data

Results flagged for a closer look

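In groups of 4 libraries, Dixon's test was used to find a library far from the others (95% critical value 0.829). Such a library was seen in 13 of 52 group-by-measure sets examined. For independent, normally spread values chance gives about 1 in 20. These sets are not independent, since the ratios use the same levels and control replicate 3 recurs, and some genes are near 0. The 13 of 52 is therefore not a test against that rate. Control replicate 3 accounted for 5 of the 6 member levels. It had 14.59 CPM of Gabra4 (other controls 30.7 to 33.1), 11.08 of Gabra5 (36.0 to 38.7), 45.65 of Gabrb1 (84.0 to 91.0), 4.818 of Gabrb2 (41.6 to 45.5) and 24.23 of Gabrg1 (44.7 to 48.0). The same library stood apart in the log2 ratios Gabra3/Gabra4 (2.546), Gabra3/Gabra5 (2.942), Gabra4/Gabra5 (0.3956) and Gabrb1/Gabrb2 (3.237). Knockdown replicate 5 was low in Gabrg1 (40.14 CPM, others 56.6 to 58.1). Of the genes near 0, Gabra6 had 0.4102 CPM in control replicate 6 and 0.0362 CPM in knockdown replicate 3, and Gabrp had 0.01415 CPM in control replicate 6, from few reads each.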

How the results depend on the processing

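The fall of Gabra3 kept its direction and its call under all 16 alternatives (log2 fold change -1.08 to -0.95, adjusted p up to 0.0383), while the rise of Gabrb1 kept its direction under all 16 and its call under 9. Members called higher numbered 0 with no filter and with the replicate number as a block, and 0 to 1 when libraries were left out in turn. Members called lower numbered 2 with limma-voom, 3 without both libraries numbered 3 and 1 to 2 when libraries were left out. Genes called higher and lower numbered 480 and 778 with the replicate block, 5229 and 4979 with limma-voom, 4805 and 4760 without both libraries numbered 3, and 1684 to 3723 and 2140 to 3475 when libraries were left out in turn. Upper quartile scaling called 3176 higher and 2432 lower. With the block, adjusted p was 0.122 for Gabrb1, 0.0684 for Th, 0.167 for Slitrk3, 0.0613 for Gad1, 0.0654 for Slc12a5, 0.053 for Stk39, 0.172 for Slc12a2, 0.0589 for Glrb, 0.106 for Glra2, 0.351 for Glra3, 0.268 for Kctd12b, 0.109 for Dbi, 0.0789 for Tspo, 0.0851 for Zeb2 and 0.118 for Med13, so these calls were lost. Knockdown replicate 2 and control replicate 6 have no library of the same number. With the block the group difference therefore rests on numbers 3, 4 and 5, and it is harder for a gene to pass. The block left 2 of 7 falls in the postsynapse list and 3 of 4 in the GABA synthesis list, and no call in the chloride, glycine, GABA-B and benzodiazepine-site lists. The numbers were not shown to pair libraries (correlation of deviations from group means 0.104, 0.0987 and 0.042 for numbers 3, 4 and 5), and knockdown replicates 3 and 4 but not 5 correlated best with their own number. Log2 fold changes of uncalled genes that changed sign were those of Gabra2 (-0.169 with the block, -0.04774 without control replicate 6, -0.1047 without knockdown replicate 3, -0.0147 without both numbered 3), Gabra5 (0.0229 with the block), Gabra4 (-0.0208 without control replicate 3), Katnbl1 (-0.0732 with the block) and Mettl15 (0.152 with the block), and the cause was not tested. Leaving out libraries in turn gave at most 0.2061 for Gabra2 and 0.2737 for Gabra4. The ratio Gabra2/Gabra4 became 0.164 without control replicate 3 and ran down to -0.4499 without control replicate 6. Gabra2/Gabra5 became 0.716 without control replicate 3, -0.09447 without control replicate 6, -0.01875 without knockdown replicate 3 and -0.202 within numbers 3, 4 and 5. No ratio passed after adjustment in any setting. With all 8 libraries, Gabra3/Gabra4, Gabra3/Gabra5 and Gabra2/Gabra3 already had the smallest p that the exact test can give. A larger difference in them could not have lowered their adjusted p. With a library left out the exact test cannot reach the threshold.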
